A study of Mus musculus with 2 samples.

Results

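The genes described were 7 MHC class II genes, H2-Aa, H2-Ab1, H2-Eb1, H2-DMa, H2-DMb1, Cd74 and Ciita, out of 32285 genes in the count matrices. They were chosen by gene symbol, as a known family and not by a limit on any measured value. The study dissected temporomandibular joints (TMJ, the jaw joint) of C57BL/6 mice aged 8 to 10 weeks. The mice were females. Complete Freund's adjuvant (CFA), a mycobacterial preparation in oil that provokes joint inflammation, had been injected into the joint in both groups, and dissociated cells were profiled by single-cell RNA sequencing. One library came from wild type (WT) mice, and the other from Prox1 mutant mice, heterozygous for loss of the transcription factor that specifies lymphatic endothelium (Prox1+/-). The question addressed by the pair was how cells of the inflamed joint differ when lymphatic vessels are deficient. Each condition had 1 library, the number of mice behind a library is not given in the sources used here, and joints without CFA were not analysed here. Differences between the libraries therefore have no replicate check and no test. All intervals below are 95% intervals for counting error only, and genotype cannot be told apart from any other difference between the libraries.

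MHC class II molecules display peptides from engulfed proteins to CD4 T cells. H2-Aa and H2-Ab1 encode the α and β chains of the I-A molecule, and H2-Eb1 encodes the β chain of I-E. Cd74 encodes the invariant chain, which occupies the peptide groove of a new class II molecule during its transport, and H2-DMa and H2-DMb1 encode the H2-DM heterodimer that exchanges the last invariant chain fragment for peptide in the endosome. Ciita encodes the coactivator that switches these genes on together. Dendritic cells, B cells and many macrophages express class II constitutively, and interferon-γ induces it in further cells, endothelium among them.

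The H2 members lie together on mouse chromosome 17 (build GRCm38), with H2-DMa at chr17:34119541-34139101, H2-DMb1 at chr17:34153072-34160230, H2-Ab1 at chr17:34257689-34269419, H2-Aa at chr17:34282744-34287823 and H2-Eb1 at chr17:34305867-34316674. H2-Aa is on the minus strand and the other 4 are on the plus strand. Ciita is at chr16:10480059-10528418. RefSeq promoter windows were present for 4 of the 7 members, namely H2-Aa, H2-Eb1, H2-DMa and H2-DMb1. The 150 bases before the start of H2-Aa and of H2-Eb1 are shown because their class II promoters hold the short elements at which the complex that recruits CIITA assembles. The elements searched, on both strands, were the Y box GATTGG (reverse CCAATC), the X box letters AACNGATG and the CREB site TGACGTCA, which reads the same on both strands. Matches are in capitals, and no matches overlapped.
H2-Aa, chr17:34287824-34287973, minus strand: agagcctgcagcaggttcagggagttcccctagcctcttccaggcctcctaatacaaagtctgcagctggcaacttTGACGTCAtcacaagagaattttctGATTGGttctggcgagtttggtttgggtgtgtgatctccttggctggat
H2-Eb1, chr17:34305717-34305866, plus strand: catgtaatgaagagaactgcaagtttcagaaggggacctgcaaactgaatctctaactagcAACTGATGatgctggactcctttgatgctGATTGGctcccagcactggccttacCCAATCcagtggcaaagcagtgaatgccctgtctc

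In H2-Aa the CREB site lay 74 to 67 bases before the start and the Y box 49 to 44 bases before it. In H2-Eb1 the X box letters lay 89 to 82 bases and the Y box 60 to 55 bases before the start, with a reverse Y box 35 to 30 bases before it. H2-DMb1 held the X box letters 92 to 85 bases and the Y box 62 to 57 bases before its RefSeq start, and the 2 windows of H2-DMa held none of the 3 elements. The RefSeq starts of H2-DMa and H2-DMb1 lie inside the gene spans given above, which come from another annotation of the same build. Of 32851 RefSeq promoter windows of the same length, 10.9% held the Y box, 1.14% the X box letters, 1.36% the CREB site, and 0.295% a Y box together with either of the others. A match describes the letters in the window and was not tied to any count.

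The WT library held 5709 barcodes, of which 4352 (76.2%) had 500 genes or more and less than 10% mitochondrial UMIs, and the mutant library held 7846, of which 5757 (73.4%) passed. UMIs (unique molecular identifiers, each 1 captured transcript) summed to 53517206 and 62446987, and kept cells had medians of 6997 and 4848 UMIs. Prox1 itself was at 11.6 counts per 1000000 UMIs (CPM) over all kept WT cells (563 UMIs) and 5.80 CPM over all kept mutant cells (315 UMIs), the lower level being in the library labelled mutant. The 2 libraries shared 10 barcodes, 4 of them kept. Cells were clustered without 11 class II genes, so that no cell type rested on the genes described, and clusters were named from fixed marker lists: every name below means cells that resemble that type. Of the 43 clusters, 9 came at least 90% from 1 library. They held 62 WT and 1806 mutant cells and were kept out of the named types. In the mutant library these 9 clusters had medians of 1133 to 3983 UMIs per cell.

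Levels are given as CPM, and most often for the core, the summed UMIs of H2-Aa, H2-Ab1, H2-Eb1 and Cd74. A UMI counts 1 transcript end in these 3′ libraries whatever the gene's length, so CPM of different genes were set side by side without a length correction. Among cell types with at least 20 cells in each library, the core was highest in macrophage subsets. Interferon-responding macrophages, which expressed Cxcl9, Cxcl10 and Isg15, were at 21926 CPM (21727–22126, 140 cells) in WT and 19077 (18929–19226, 172 cells) in the mutant. M2-like macrophages, marked by Mrc1, Ccl8 and Folr2, were at 20454 CPM (20185–20727, 78 cells) in WT and 23638 (23437–23840, 106 cells) in the mutant. M1-like macrophages, marked by Mmp12, Spp1 and Nos2, were lower, at 7441 CPM (7382–7499, 249 cells) in WT and 10787 (10707–10867, 185 cells) in the mutant. The macrophage class as a whole held 78.7% of all core UMIs in the WT library and 70.4% in the mutant library, from 13.03% and 11.36% of the kept cells.

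**Figure D1:**
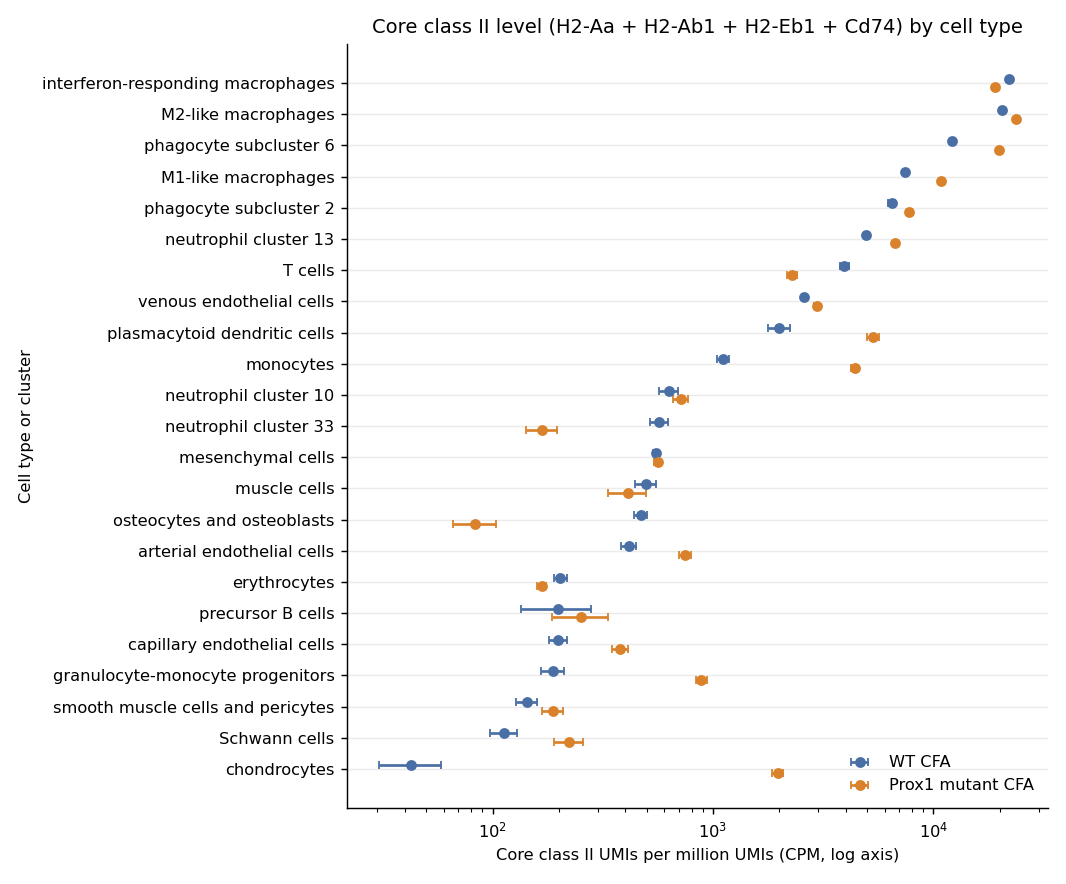
Core class II level (H2-Aa, H2-Ab1, H2-Eb1 and Cd74 summed, CPM, log axis) in the 23 ranked cell types, in the order of the WT library, with points for the WT and the Prox1 mutant library and exact Poisson 95% intervals that cover counting error only. Named macrophage subsets sat at 7441 CPM or more, venous-like endothelium at 2591 and 2958 CPM, and capillary-like endothelium at 198 and 378 CPM.

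Among 23 cell types with at least 20 cells in each library, the order from highest to lowest was similar at the top. In WT it began with interferon-responding macrophages, M2-like macrophages, phagocyte subcluster 6 (12177 CPM), M1-like macrophages and phagocyte subcluster 2 (6455 CPM), with every neighbouring pair apart. In the mutant it began with M2-like macrophages, phagocyte subcluster 6 (19817 CPM), interferon-responding macrophages, M1-like macrophages and phagocyte subcluster 2 (7789 CPM), again with every pair apart. Both subclusters were left unnamed because fewer than 3 markers of any list were raised. Subcluster 6 had a median of 20935 UMIs per cell in WT (31 cells) and 2493 in the mutant (45 cells). The part of depth in its levels was not tested. Neutrophil cluster 13, T cells, venous-like endothelium, plasmacytoid dendritic cells and monocytes held the next 5 places in both libraries, in a different sequence.

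Lower in the WT order, neighbours did not differ beyond counting error from neutrophil cluster 10 (630 CPM) down through neutrophil cluster 33, mesenchymal cells, muscle cells and osteocytes to arterial-like endothelium (415 CPM). The same held from erythrocytes (203 CPM) through precursor B cells and capillary-like endothelium to granulocyte-monocyte progenitors (187 CPM), and for smooth muscle cells (143 CPM) and Schwann cells (112 CPM). In the mutant, arterial-like endothelium (748 CPM) and neutrophil cluster 10 (714 CPM) overlapped, as did muscle cells (411 CPM) and capillary-like endothelium (378 CPM), and each neighbour from precursor B cells (252 CPM) down to erythrocytes (167 CPM). Chondrocytes were last in WT at 42.7 CPM but stood at 1963 CPM in the mutant. Their median depth was 32460 UMIs per cell in WT and 3342 in the mutant, so the clusters of that name differed in depth as well as in class II, and its part in the difference was not tested.

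The level of transcripts that leak into droplets of other cells was read from erythrocytes, which should make little class II of their own. Their core was at 203 CPM (190–217) in WT and 167 (159–176) in the mutant, at median depths of 9377 and 9481 UMIs per cell. Neutrophils had been planned as a second reference. Neutrophil cluster 10, with shallower medians of 2891 and 4690 UMIs, was at 630 and 714 CPM. Neutrophil cluster 33 was at 570 and 168 CPM over the summed cells, with medians per cell of 0 and 48.5 CPM. In WT its 95th percentile was 205 CPM and its highest cell was at 15112 CPM. Schwann cells, with medians of 3494 and 4140.5 UMIs, were at 112 and 221 CPM. How much of these levels was leaked RNA was not tested. In the WT library 49.0% of the erythrocytes' core UMIs were in 1 droplet, and without droplets of at least 3 C1q UMIs erythrocytes were at 90.3 and 158 CPM. C1qa, C1qb and C1qc, complement genes that macrophages make, served as a tracer of macrophage RNA. Macrophages of the WT library had 4.77 (4.71–4.83) core UMIs per C1q UMI and those of the mutant library 5.57 (5.51–5.63). Erythrocytes had 4.42 (3.78–5.19) and 5.55 (4.87–6.34), intervals that include the macrophage values. In WT, however, 1 droplet held 52.8% of the erythrocytes' C1q UMIs. Without droplets of at least 3 C1q UMIs, erythrocytes held 371 core and 75 C1q UMIs in WT, and 1401 and 209 in the mutant. Macrophage subsets themselves ran from 2.07 (M2-like) to 9.23 (M1-like) in WT and from 2.67 to 13.4 in the mutant, and phagocyte subcluster 2 was at 11.7 and 15.9. Capillary-like endothelium was at 5.86 (4.59–7.56) and 8.55 (6.61–11.2) core UMIs per C1q UMI, within the range of the macrophage subsets but, in the mutant, above the value of the class. The clusters from 1 library were at 4.398 and 4.94. T cells were at 5.21 and 4.47, but 1 droplet held 44.1% of their C1q UMIs in WT and 81.4% in the mutant. Venous-like endothelium (175 and 189), dendritic-like cells (405 and 174) and B cell subcluster 2 (85.6 and 208) had more core UMIs per C1q UMI than any macrophage subset. Other types were above the subsets too, among them plasmacytoid dendritic cells (101 and 77.4), monocytes (33.8 and 157) and arterial-like endothelium (16.5 and 29.2). The WT interval of arterial-like endothelium (12.1–23.1) overlapped that of phagocyte subcluster 2 (10.4–13.3). The part of leaked RNA in these levels was not tested.

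Some of the middle places in the order rested on few droplets. In neutrophil cluster 13, 37 of 124 WT droplets and 41 of 166 mutant droplets held at least 3 C1q UMIs. Those droplets were at 9168 and 11561 core CPM, and the remaining droplets of the cluster were at 936 and 1669 CPM. A single droplet held 56.1% of the monocytes' core UMIs in WT and 33.1% in the mutant, and 40.2% and 58.5% of the T cells' core UMIs. Monocytes therefore had a median core of 79.4 CPM per cell in WT and 200 CPM in the mutant, against levels over the summed cells of 1111 and 4387 CPM.

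Within macrophages all 4 core genes were abundant. H2-Aa was at 2469 CPM in WT and 3562 in the mutant, H2-Ab1 at 1625 and 2372, H2-Eb1 at 1686 and 2586, and Cd74 at 5362 and 6529. The peptide-exchange genes were at about 200 CPM, H2-DMa at 208 and 192 and H2-DMb1 at 205 and 216. Ciita was the rarest member, at 30.3 CPM (387 UMIs) and 63.6 CPM (852 UMIs). All 7 members were above their erythrocyte level in each macrophage subset. H2-DMb1 and H2-DMb2 are near-identical neighbours, so the split of reads between them is uncertain. Ciita overlaps Dexi, and H2-DMa overlaps Brd2, both on the opposite strand.

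**Figure D2:**
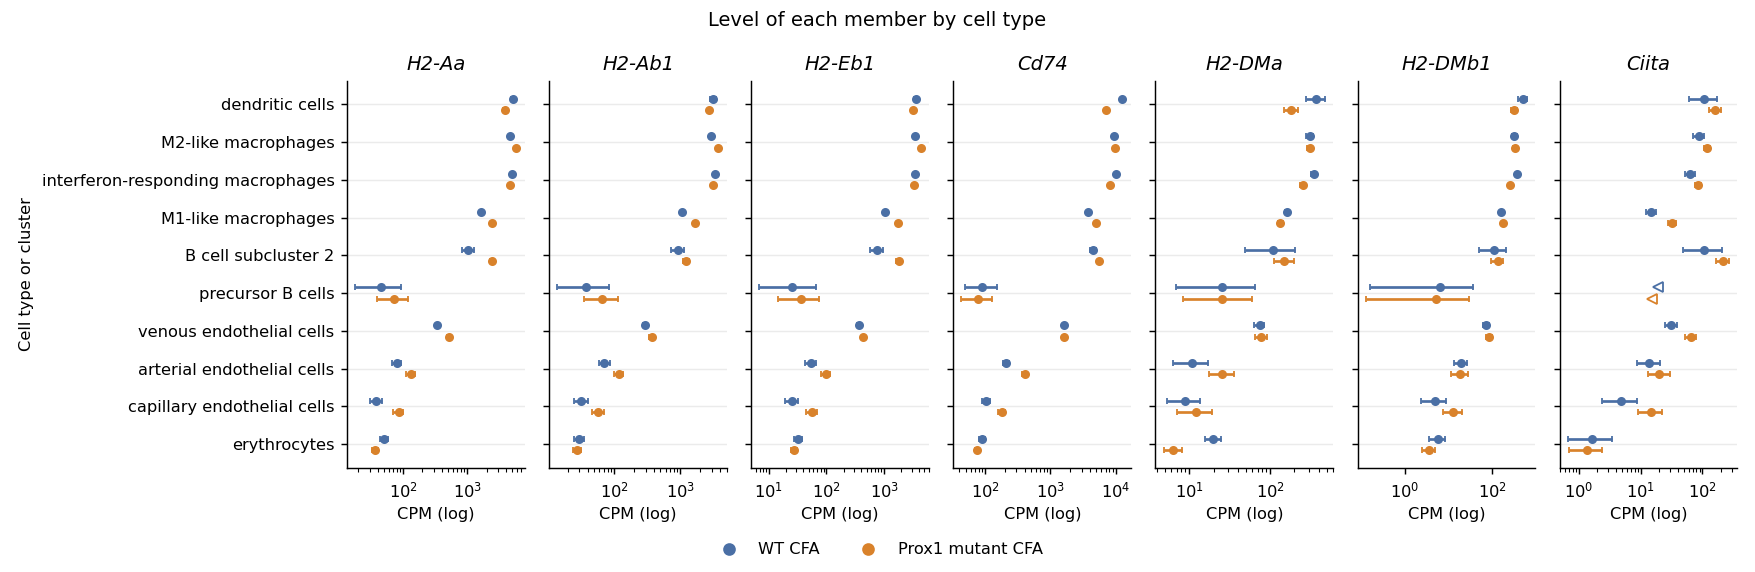
Level of each of the 7 members (CPM, log axis, 1 panel per gene with its own range) in 10 cell types of both libraries, with exact Poisson 95% intervals for counting error. Open triangles mark the level that a count of 0 allows (Ciita in precursor B cells), and Cd74 was the most abundant member and Ciita the rarest in each macrophage subset.

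M2-like macrophages exceeded M1-like macrophages for every member in both libraries. In WT, H2-Aa was at 4607 CPM in M2-like and 1618 in M1-like cells, Cd74 at 9503 and 3719, H2-DMa at 307 and 164, and Ciita at 87.4 and 14.7. In the mutant, H2-Aa was at 5831 and 2443 CPM, Cd74 at 9829 and 4914, H2-DMa at 308 and 134, and Ciita at 118 and 32.5. The log2 ratio of M2-like over M1-like core was 1.46 (1.44–1.48) in WT and 1.13 (1.12–1.15) in the mutant. In WT the ratio depended on which cells were kept and how finely macrophages were split: it was 0.63 under a stricter filter (1000 genes, 5% mitochondrial UMIs), and 0.76 when macrophages were reclustered at resolution 1.0. Both settings named an osteoclast cluster. At resolution 1.0 that cluster held 182 WT and 117 mutant cells and left 68 and 68 M1-like cells, and under the stricter filter it held 156 and 127 and left 84 and 127. M1-like cells were also deeper, with medians of 31595 and 28609 UMIs against 12424 and 18123 in M2-like cells.

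Single macrophages spread widely around these levels. The median core per M2-like cell was 19184 CPM in WT and 26735 in the mutant, and the middle 50% of cells ran from 6725 to 36668 and from 12994 to 36147 CPM. M1-like cells had medians of 6280 and 9507 CPM, and interferon-responding macrophages had medians of 23303 and 19848 CPM. The per-cell distributions of M1-like and M2-like cells overlapped in both libraries. After thinning each cell to 2000 UMIs, 98.5% of WT and 99.0% of mutant M2-like cells with a Cd74 UMI also had an I-A or I-E chain UMI.

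**Figure D3:**
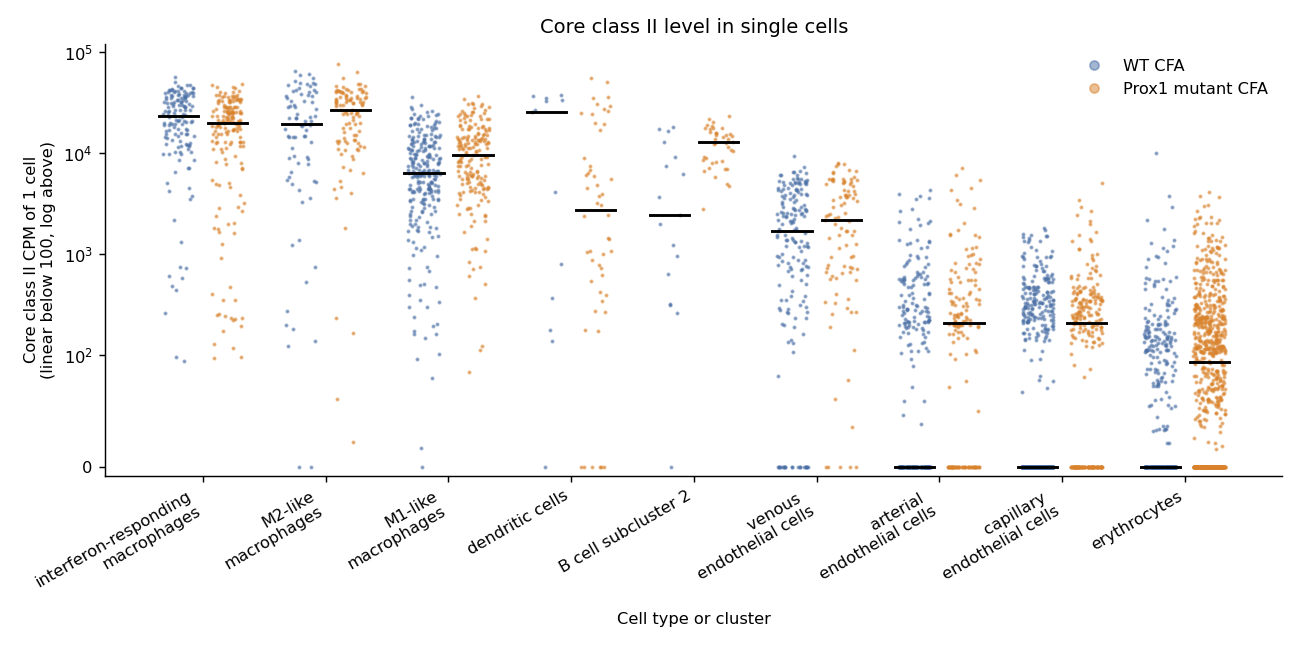
Core class II level of single cells (CPM, linear below 100 and log above) in 9 cell types of each library, with 1 point per cell and a bar at the median. Medians ran from 0 CPM in WT capillary-like endothelium to 26735 CPM in mutant M2-like macrophages.

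Between the libraries, the macrophage core was at 11143 CPM (11085–11201, 567 cells) in WT and 15050 (14984–15115, 654 cells) in the mutant, a log2 ratio of 0.43 (0.42–0.44). The median log2 ratio of all genes tested in macrophages was 0.19, and relative to that median the core ratio was 0.24. The chain genes were higher in the mutant by a log2 ratio of 0.53 for H2-Aa, 0.55 for H2-Ab1 and 0.62 for H2-Eb1, and Cd74 by 0.28. H2-DMa had a log2 ratio of −0.12 (−0.20 to −0.04) and H2-DMb1 of 0.08 (0.00 to 0.15), which became −0.12 relative to the median of all genes. Ciita had the largest ratio of the members, 1.07 (0.89–1.25), and was the only member of 7 at least 2-fold higher in the mutant, while 2.9% of 8277 genes tested in macrophages were at least 2-fold higher and 1.08% at least 2-fold lower (genes with 200 UMIs or more over both libraries). With a limit of 50 UMIs it was again 1 of 7, beside 5.66% of 11215 genes higher and 1.64% lower.

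The subsets did not all move alike. The core log2 ratio of mutant over WT was 0.54 (0.52–0.55) in M1-like, 0.21 (0.19–0.23) in M2-like and −0.20 (−0.22 to −0.18) in interferon-responding macrophages. Ciita was higher in the mutant in all 3 subsets. It went from 14.7 to 32.5 CPM in M1-like cells (log2 ratio 1.14), from 87.4 to 118 CPM in M2-like cells and from 63.5 to 84.7 CPM in interferon-responding macrophages, where H2-Aa went from 4974 to 4568 CPM and Cd74 from 10186 to 8146 CPM. In M1-like cells Ciita was the only member past 2-fold, against 2.77% of genes higher and 0.76% lower. No member was past 2-fold in M2-like macrophages, against 1.26% of genes higher and 1.13% lower, or in interferon-responding macrophages, against 1.7% higher and 0.741% lower. The whole-class ratio therefore joined subsets with ratios of opposite sign, in unequal shares in the 2 libraries.

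B cells held class II in some subclusters and almost none in others. Over the whole class (147 WT and 120 mutant cells) the core was at 1030 CPM (960–1104) in WT and 5349 (5199–5502) in the mutant, a log2 ratio of 2.38 (2.27–2.49). H2-Aa was at 165 and 1216 CPM, H2-Ab1 at 162 and 682, H2-Eb1 at 97.8 and 885, Cd74 at 606 and 2565, and Ciita at 16.7 CPM (13 UMIs) and 110 CPM (99 UMIs). The 4 members with enough UMIs to test, H2-Aa, H2-Ab1, H2-Eb1 and Cd74, were all at least 2-fold higher in the mutant, while 7.29% of 1756 genes tested in B cells were at least 2-fold higher and 4.44% at least 2-fold lower. With a limit of 50 UMIs, H2-DMa (log2 ratio 1.53), H2-DMb1 (2.01) and Ciita (2.71) joined them, and 7 of 7 members were past 2-fold beside 8.52% of 5552 genes higher and 4.59% lower.

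The subclusters differed both in the cells each library held and in their levels. Precursor B cells, named from Vpreb1, Igll1, Rag1 and related genes, had a core of 198 CPM (43 cells) in WT and 252 CPM (27 cells) in the mutant, against 203 and 167 CPM in erythrocytes (90.3 and 158 without C1q droplets), and no Ciita UMI in either library. Subcluster 2 had 6 raised markers of mature B cells. It stayed unnamed because Hdc, a marker of mast cells and basophils, was among its 10 leading genes while no mature B cell marker was. The 10 also included Retnlg and Il1f9, genes of granulocytes, and the immunoglobulin genes Igha and Iglc1. It held 17 WT and 40 mutant cells, and its core was at 7146 CPM (6585–7742) and 11054 CPM (10693–11424), a log2 ratio of 0.63. In WT, 39.7% of that subcluster's core UMIs were in 1 droplet, and the median per cell was 2414 CPM in the WT library and 12720 CPM in the mutant one.

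The remaining B cell subclusters gave core log2 ratios of 0.15 in subcluster 1 and −0.15 in subcluster 4, where both intervals included 0. In subcluster 3, with medians of only 1386 and 1644 UMIs per cell, the core was at 280 CPM from 6 UMIs in WT and 9647 CPM in the mutant, a log2 ratio of 5.11 (3.98–6.55). The 10 genes that led that subcluster were Cxcl9, Chil3, Ccl5, Hp, Slc7a2, Lrp1, Nos2, Sirpa, Ly6c2 and Aoah. They include markers from the lists of macrophage subsets (Cxcl9, Slc7a2, Nos2) and monocytes (Chil3, Ly6c2). Its mutant cells had 26.6 (19.7–36.8) core UMIs per C1q UMI, more than any macrophage subset, with 72.7% of their C1q UMIs in 1 droplet. Ciita was at 231 CPM (28 UMIs) in them, against 118 in mutant M2-like macrophages. In the mutant, 4 B cell droplets held at least 3 C1q UMIs, and without such droplets the class ratio was 2.15. When the libraries were merged without integration the ratio of the B cell class turned to −0.47 (−0.79 to −0.16). Then 37 of 40 mutant cells of subcluster 2 and 29 of 31 of subcluster 3 fell in a cluster almost entirely from 1 library. That cluster, set apart from the B cells, also took 7 of 17 WT cells of subcluster 2. The other 10, and all 15 WT cells of subcluster 3, stayed among the B cells.

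In subcluster 2, H2-Aa was at 1026 CPM in WT and 2447 in the mutant, H2-Eb1 at 740 and 1781, Cd74 at 4462 and 5613, and Ciita at 107 CPM (9 UMIs) and 216 CPM (69 UMIs). Class II chains that B cells characteristically use were also found there. H2-Ob and H2-Oa, which encode the H2-DO heterodimer that restrains H2-DM, were at 83.5 and 47.7 CPM in WT and 256 and 109 CPM in the mutant, while in macrophages both were under 6 CPM. H2-Ob was at 102 CPM in WT and 77.0 CPM in mutant precursor B cells, where no Ciita UMI was found. H2-DMb2, the second β chain gene of H2-DM, was at 47.7 and 166 CPM in subcluster 2 and at 1.33 and 3.58 CPM in macrophages. In the 17 WT cells of subcluster 2 a count of 3 UMIs amounts to 35.8 CPM. The WT levels of H2-Ob, H2-Oa and H2-DMb2 there thus rest on few UMIs.

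Among endothelial cells, class II was concentrated in the venous-like subset, which expressed Selp, Sele and Ubd. Its core was at 2591 CPM (2531–2652, 171 cells) in WT and 2958 (2877–3040, 93 cells) in the mutant. Arterial-like endothelium was at 415 CPM (384–447, 263 cells) and 748 (701–798, 148 cells), and capillary-like endothelium at 198 CPM (180–217, 460 cells) and 378 (347–410, 242 cells). Cd74 was at 1597 and 1631 CPM in venous-like, 210 and 401 in arterial-like and 103 and 179 in capillary-like cells. Ciita was at 31.5 CPM (85 UMIs) and 64.2 CPM (111 UMIs) in venous-like cells, 13.8 and 20.05 CPM in arterial-like cells and 4.82 and 14.7 CPM in capillary-like cells.

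After thinning to 2000 UMIs, 77.6% (70.6–83.7) of WT and 83.9% (74.8–90.7) of mutant venous-like cells had a core UMI. The thinned shares were 29.5% and 37.8% in arterial-like and 26.0% and 35.5% in capillary-like cells, and 13.53% and 26.1% in erythrocytes. Without thinning, 88.3% and 94.6% of venous-like cells and 47.8% and 68.3% of erythrocytes had one, at median depths of 13146 and 15402 UMIs for venous-like cells and 9377 and 9481 for erythrocytes. Of the thinned venous-like cells with a Cd74 UMI, 78.9% in WT and 85.7% in the mutant also had an I-A or I-E chain UMI, against 27.1% and 34.8% in capillary-like cells and 25% and 43.5% in erythrocytes. After thinning, the share of capillary-like cells with a core UMI was thus higher than in erythrocytes. Before it, 57.8% (WT) and 32.6% (mutant) of capillary-like cells had no core UMI, against 52.2% and 31.7% of erythrocytes. The median depth of capillary-like cells was 4186 and 5418 UMIs, and the part of leaked RNA in these shares was not tested. Core per C1q UMI of capillary-like cells lay within the range of the macrophage subsets.

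Over all endothelial cells the core was at 1224 CPM (1197–1251, 894 cells) in WT and 1479 (1443–1515, 483 cells) in the mutant, a log2 ratio of 0.27 (0.23–0.32). No member of 7 was past 2-fold, while 0.867% of 7037 genes tested were at least 2-fold higher and 1.07% at least 2-fold lower (2.05% and 1.7% of 10599 genes with a limit of 50 UMIs). The members' log2 ratios were 0.63 for H2-Aa, 0.41 for H2-Ab1, 0.35 for H2-Eb1, 0.12 for Cd74 and 0.98 for Ciita. H2-DMa, at 0.19 (−0.09 to 0.48), and H2-DMb1, at 0.25 (−0.03 to 0.53), had intervals that included 0. The core log2 ratio was 0.93 in capillary-like, 0.85 in arterial-like and 0.19 in venous-like cells. Some cell types with little class II were also higher in the mutant. Schwann cells were at 112 CPM in WT and 221 in the mutant, and erythrocytes without C1q droplets at 90.3 and 158. Others were lower over the summed cells, with all erythrocytes at 203 and 167 CPM and osteocytes at 470 and 83.5. By single cells the direction was the opposite. No core UMI was found in 49.6% of WT and 23.5% of mutant osteocytes, and in 52.2% and 31.7% of erythrocytes. The WT osteocyte level rested on few droplets, with a 95th percentile of 276 CPM and a highest cell at 14997 CPM. The part of leaked RNA in the endothelial ratios was not tested. In venous-like cells 0 of the 6 members tested were past 2-fold, against 1.14% of genes higher and 1.28% lower, and Ciita had a log2 ratio of 1.03 from 85 WT and 111 mutant UMIs, under the 200 required in sum. The thinned share of endothelial cells with a core UMI was 37.4% (34.1–40.7) in WT and 45.5% (41.0–50.1) in the mutant, and the share in erythrocytes was higher in the mutant as well. When endothelial cells were taken by the UMIs of their markers in place of clusters (1380 WT and 1103 mutant cells), the core was at 1522 and 2766 CPM, a log2 ratio of 0.86, and the shares were 36.6% and 55.9%.

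**Figure D4:**
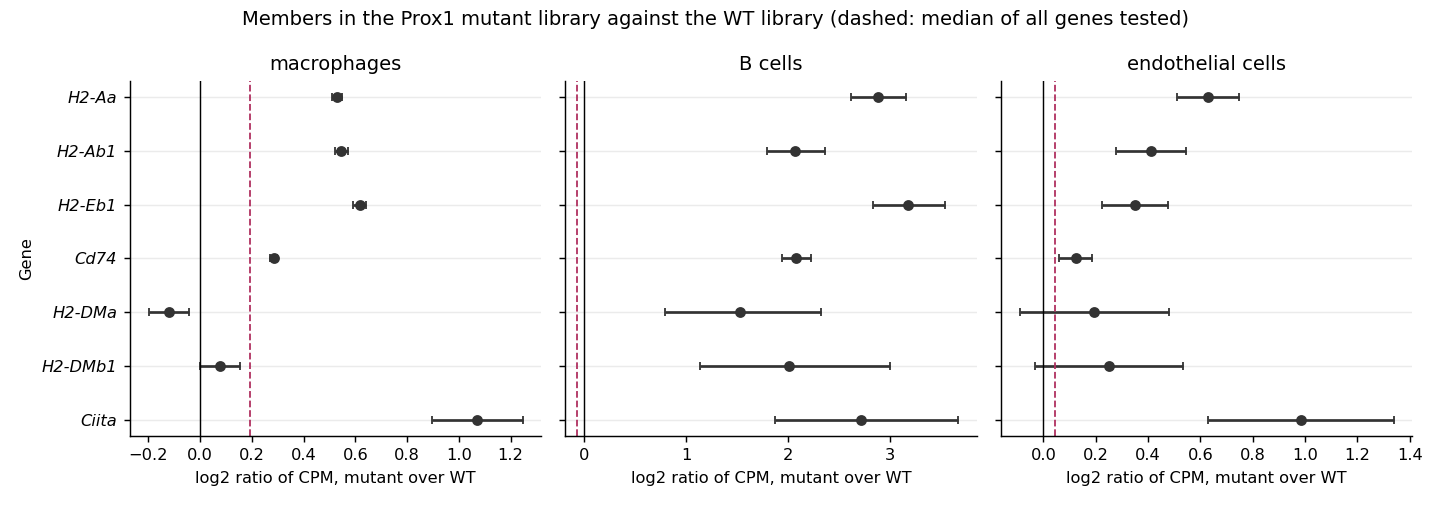
Log2 ratio of mutant over WT CPM for each member in macrophages, B cells and endothelial cells, 1 panel each with its own range, with exact conditional 95% intervals for counting error (1 library per condition, no test). The solid line marks 0 and the dashed line the median of all genes tested, and only H2-DMa in macrophages had a ratio below 0 (−0.12).

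The venous-like cluster also held the lymphatic endothelial cells, since Prox1 was at 105 CPM in its WT cells and 66.0 CPM in its mutant cells, and at 3.00 CPM or less in the other endothelial subsets. Droplets with at least 3 UMIs of 7 lymphatic marker genes, a limit set after the data were seen, numbered 28 (16.4%) in WT and 19 (20.4%) in the mutant. Their core was at 1442 CPM (1353–1536) in WT and 1958 (1829–2094) in the mutant, against 2969 (2894–3045) and 3297 (3198–3397) in the other droplets of the cluster. They held 6 Ciita UMIs in WT and 35 in the mutant. Lymphatic marker droplets thus carried class II at a lower level than the remaining venous-like cells, and above erythrocytes, in both libraries.

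The members were not in the same proportion in every cell type. I-A and I-E chain UMIs per Cd74 UMI were 1.08 in WT and 1.31 in mutant macrophages, with 1.001 and 1.195 in M1-like, 1.15 and 1.40 in M2-like and 1.15 and 1.34 in interferon-responding macrophages. Venous-like endothelium held fewer chain UMIs per Cd74 UMI, with ratios of 0.62 and 0.81, as did B cell subcluster 2, with 0.60 and 0.97. The mutant value was higher in 16 of 23 cell types, with intervals that did not overlap in 9, and in none was it lower without overlap. Cell types of a library share its leaked RNA, so this count and those for H2-DM and Ciita below are descriptions. How often ratios of other genes part between the libraries was not counted.

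**Figure D5:**
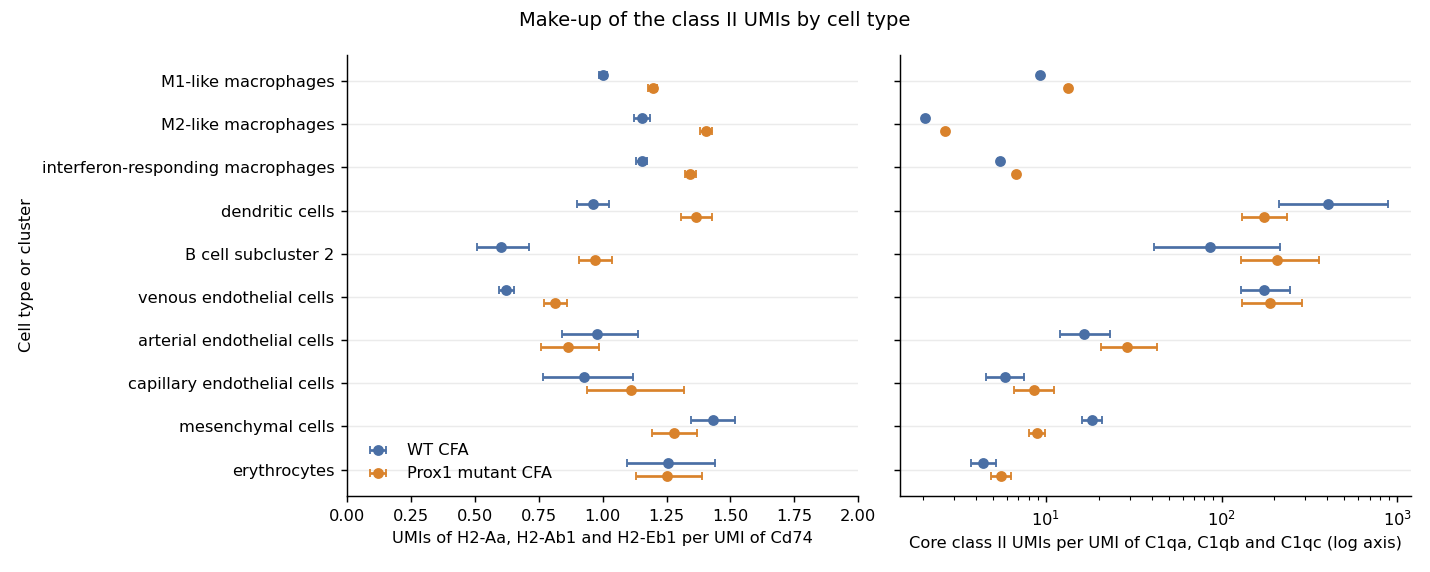
Make-up of the class II UMIs in 10 cell types of both libraries with 95% intervals for counting error. The left panel gives I-A and I-E chain UMIs per Cd74 UMI, lowest in B cell subcluster 2 and venous-like endothelium (0.60 and 0.62 in WT), and the right panel gives core UMIs per C1q UMI on a log axis, at 4.42 and 5.55 in erythrocytes and 175 and 189 in venous-like endothelium.

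H2-DM (H2-DMa and H2-DMb1 together) came to 3.71 UMIs per 100 core UMIs in WT and 2.71 in mutant macrophages, and 5.60 and 5.46 in venous-like endothelium. Cell types with little core had relatively more of it. Granulocyte-monocyte progenitors held 77.5 and 15.7 H2-DM UMIs per 100 core UMIs, and H2-DMa itself was at 87.7 and 82.7 CPM in them, against 19.8 and 6.37 CPM in erythrocytes. Of the progenitors' core UMIs, 140 of 284 in WT and 923 of 1296 in the mutant were in droplets with at least 3 C1q UMIs. Such droplets numbered 3 in WT and 9 in the mutant. Schwann cells held 45.6 and 27.5 per 100. The mutant value was below WT without overlap in 11 of 23 cell types. Ciita per 1000 core UMIs was 2.72 in WT and 4.23 in mutant macrophages, 12.1 and 21.7 in venous-like endothelium and 15.03 and 19.5 in B cell subcluster 2. It was higher in the mutant in 16 of the 19 cell types in which it could be computed, with 4 of them apart.

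The highest core of all named cells was in dendritic-like cells in WT, at 24406 CPM over only 13 cells, and it was 16829 CPM over 52 cells in the mutant. They expressed Flt3, Cd209a and Dpp4. The median per cell was 25200 CPM for WT droplets and 2724 CPM for mutant droplets, so many mutant droplets of that name held little class II. The name depended on the settings. It held 9 WT and 20 mutant cells under the looser filter (200 genes, 20% mitochondrial UMIs) and 9 and 21 without integration. With class II genes kept in the clustering it held 8 and 21, and under the stricter filter no phagocyte subcluster took it. Without doublets it again held 13 and 52. The class II level of the mutant cells that left the name was not tested. Plasmacytoid dendritic cells were at 2002 CPM (20 cells) and 5325 CPM (23 cells), with 0 Ciita UMIs in WT and 23 in the mutant. A count of 0 in those 20 WT cells allows up to 19.8 CPM of Ciita.

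Other genes of antigen presentation were read from lists chosen by function. Of 5 listed further class II chains, 4 were among the genes of the matrices, and none of the 4 had enough UMIs to test in macrophages, B cells or endothelial cells. H2-Ea, the α chain gene of I-E, was not among the genes of the matrices. UMIs of H2-Eb1 therefore count β chain transcripts only and are no measure of an I-E molecule. In macrophages, of 9 tested regulators of class II transcription (Spi1, Irf1 and others) 0 were past 2-fold between the libraries, with a median log2 ratio of 0.44 beside 0.19 for all genes. Of 8277 genes tested in macrophages, 2.9% were at least 2-fold higher and 1.08% lower. Of 9 processing genes 1 was past 2-fold: Ctsd, an aspartic protease of lysosomes, at 4204 CPM in WT and 2006 in the mutant. Of 5 co-stimulatory genes and 9 class I genes 0 were past 2-fold, and of 7 interferon-γ genes 1 was, Cxcl9, which encodes a T cell chemoattractant, at 180 and 457 CPM. The class I genes had a median log2 ratio of 0.11 in macrophages, with H2-K1 at 2539 and 2931 CPM and B2m at 2396 and 2283 CPM.

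In B cells, 3 of 4 processing genes were at least 2-fold higher in the mutant (Ctss, Ctsb and March1, which encodes the ligase that removes class II from the surface) and 1 lower (Ifi30, a thiol reductase). Of 1756 genes tested in B cells, 7.29% were at least 2-fold higher and 4.44% lower. Cd86, a ligand of CD28, was the only co-stimulatory gene tested in B cells and was at 42.4 CPM in WT and 513 in the mutant. The class included subcluster 3, whose leading genes included macrophage and monocyte markers, with 15 WT and 31 mutant cells. The part of that subcluster in these differences was not tested. Of 6 regulators 1 was lower, Irf1, at 210 and 103 CPM, and 0 of 5 class I genes passed 2-fold. In endothelial cells 0 genes of any list were past 2-fold, against 0.867% of genes tested higher and 1.07% lower. Some listed genes were far lower in endothelium than in macrophages. Ctss, the protease that trims the invariant chain in phagocytes, was at 45.1 and 48.8 CPM in endothelial cells and 6090 and 6245 in macrophages, Cd86 at 2.41 and 8.28 against 575 and 866, and Spi1 at 3.91 and 9.17 against 327 and 380. B2m was at 1592 and 1640 CPM in endothelial cells and 2396 and 2283 in macrophages.

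Across 52 cell type profiles of both libraries with at least 20 cells, Pearson's r of log2(CPM + 5) between pairs of core genes ran from 0.964 (H2-Ab1 and Cd74) to 0.990 (H2-Aa and H2-Eb1). With the summed core, of which they are no part, r was 0.882 for H2-DMa, 0.887 for H2-DMb1 and 0.846 for Ciita. The profiles share libraries, depth and leaked RNA, so these values are descriptions and carry no p. Among 13452 genes with at least 200 UMIs, a number that includes the members, the most similar non-members included Cxcl16 (0.849), Phf11b (0.841), P2ry6 (0.840), Ctss (0.833), Slamf8 (0.822), Aif1 (0.821), Gm20513 (0.818), Sgpl1 (0.813) and Cfb (0.813). Gm20513 overlaps H2-Eb1 on the opposite strand and was also the gene most like Ciita (0.868), with only 628 UMIs in kept cells.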

How the data were processed

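Single-cell libraries (10x Genomics 3′ chemistry, 1 WT and 1 Prox1 mutant, both after CFA) were deposited as filtered UMI count matrices. The authors made the deposited counts with Cell Ranger 7.0.1 on mm10, per the submitters' processing notes, and intron counting is not given in the sources used here. Counts are raw and whole. The labels and the methods name different kit versions and digestions. The 7 members and all gene and marker lists were chosen with earlier results of these data known.

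The filter kept cells with 500 genes or more and less than 10% mitochondrial UMIs (4352 WT, 5757 mutant). They were normalised with sctransform 0.4.2, integrated by anchors (3000 features, 200 components) and clustered at resolution 1.5 in Seurat 5.3.0 under R 4.3.3, after 11 class II genes were removed. Phagocytes and B cells were reclustered (30 components, resolution 0.5). A cluster was named when at least 3 of a list's markers were at least 2-fold higher (CPM + 5) and in at least 10% of its cells. A cluster with at least 90% of its cells from 1 library was set apart, as was one led by another type's markers or shallow without its own. The automatic doublet threshold (scanpy 1.11.5) called 0 cells in both libraries, so the 239 WT and 462 mutant barcodes with the highest scores were removed only as an alternative.

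UMIs were summed per cell type and library and given as CPM with exact Poisson intervals. Shares have Clopper-Pearson intervals, and log2 ratios exact conditional binomial intervals (scipy 1.17.1, Python 3.11.15). For shares, cells were thinned to 2000 UMIs and shallower cells left out. Genes with at least 200 UMIs over both libraries of a cell type were tested against a 2-fold limit, and a count of 0 was read as allowing 3 UMIs. The named genes were the members, the fixed pathway lists and the 10 genes most similar to the core. Some genes of these lists are not reported here. The ratio script was tested on simulated macrophage counts of 8277 genes. Alternatives changed the filters, doublets, class II genes in the clustering, integration, resolution, core genes, denominator, the top droplet, centring, selection by markers and thinning depth.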

Additional observations from a re-analysis of the deposited data

Results flagged for a closer look

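Class II counts stood above the erythrocyte level in cells outside the named types. The 9 clusters that came almost entirely from 1 library had a core of 4089 CPM over 62 WT cells and 4119 CPM over 1806 mutant cells, against 203 and 167 CPM in erythrocytes. In the mutant they ran from 1003 to 11120 CPM, among them clusters with markers of progenitors (5289 CPM), smooth muscle (3658 CPM), adipocytes (3506 CPM), mesenchymal (2094 CPM) and epithelial cells (1003 CPM), and after thinning 77.4% to 100% of their cells had a core UMI. In the mutant library these clusters had medians of 1133 to 3983 UMIs per cell, against 9481 in erythrocytes. Core per C1q UMI in the 9 clusters was 4.398 in WT and 4.94 in the mutant, beside 4.77 and 5.57 in macrophages.

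Clusters left unnamed had 514 core CPM over 390 WT cells and 1656 over 417 mutant cells. The barcodes left out by the filter were at 561 (WT) and 430 (mutant) core CPM.

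The core log2 ratio of mutant over WT was −0.20 in interferon-responding macrophages and positive in M1-like (0.54) and M2-like macrophages (0.21). Each library gives 1 value per subset, so the difference between the subsets was not tested.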

How the results depend on the processing

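The core ratio of mutant over WT in macrophages was 0.43 and stayed positive under every alternative for the whole class: 0.46 with 200 genes and 20% mitochondrial UMIs, 0.37 with 1000 genes and 5%, 0.42 without doublets, 0.47 without integration, 0.46 at resolution 0.5, 0.56 without Cd74, 0.24 centred on the median of all genes and 0.28 with cells taken by marker UMIs. The ratio within subsets, chosen after seeing the data, was 0.54 in M1-like, 0.21 in M2-like and −0.20 in interferon-responding macrophages. Centring turned H2-DMb1 to −0.12 in macrophages.

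In B cells (2.38) the ratio was 2.26 under the stricter filter, 2.52 without doublets, 2.71 without Cd74, 2.75 without the droplet richest in core UMIs of each library and 2.10 with cells taken by marker UMIs. Without integration it was −0.47, with Cd74 at −1.23, Ciita at −0.58 and H2-DMa at −0.031. Chosen after seeing the data, it was 2.15 without droplets of at least 3 C1q UMIs, and within subclusters 0.35 (precursor B cells), 0.15, 0.63, 5.11 and −0.15.

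In endothelial cells (0.27) it was 0.32 with class II genes kept in the clustering, 0.20 without integration, 0.47 without Cd74 and 0.86 with cells taken by marker UMIs, and within subsets, chosen after seeing the data, 0.93 (capillary-like), 0.85 (arterial-like) and 0.19 (venous-like). The thinned share (37.4% and 45.5%) was 24.6% and 33.7% at 1000 UMIs, 51.1% and 64.4% at 4000 UMIs, and 27.0% and 34.8% without Cd74. With cells taken by marker UMIs it was 55.9% in the mutant.

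M2-like over M1-like (1.46 in WT, 1.13 in the mutant) was 1.41 and 1.20 under the looser filter, 0.63 and 0.94 under the stricter, 1.55 and 1.11 with class II genes kept in the clustering, 1.58 and 1.17 without integration, 1.41 and 1.19 at resolution 0.5, 1.56 and 1.23 without Cd74 and 0.76 and 0.93 with macrophages reclustered at resolution 1.0. Without doublets it was 1.15 in the mutant.

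Of 88 such alternatives 36 stayed within counting error, 49 moved beyond it and 3 changed sign. Of 49 for the single members each, 26 of macrophages, 40 of B cells and 48 of endothelial cells stayed within it. The causes of these shifts were not tested, and only the B cells that changed cluster without integration were traced. No paired analysis was possible because each condition had 1 library, and for the same reason no replicate could be left out. Depth limits Ciita, H2-DMa and H2-DMb1 in B cells, where they rest on 13 to 20 WT UMIs.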
